A study of Mus musculus with 6 samples.

Results

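Transcripts for myelin proteins and for the enzymes of myelin lipid synthesis were followed in cultured NSP cells infected with a REST shRNA or a control shRNA lentivirus. The genes were Mbp, Mobp, Mag, Mog, Cnp, Cldn11, Ugt8a, Fa2h, Gal3st1 and Opalin, named for mature oligodendrocytes, and every probe set of the array annotated to exactly 1 of these 10 genes was taken. That gave 25 probe sets of the 45037 in the table, for 10 of the 18193 genes with a probe set of their own. Mbp had 8, Mobp 5, Cnp 3, Ugt8a 2, Opalin 2, and each of the other 5 genes 1.

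The 6 Affymetrix mouse arrays held 3 REST shRNA and 3 control shRNA samples, numbered 1 to 3 in each group. The cells came from E12.5 mouse embryo brains plated on coated dishes, were split at confluence, met the virus overnight and were harvested 6 days later. NSP is the submitters' own term. The labels name no strain, sex or hairpin sequence and no target of the control hairpin. They also do not say that the 3 samples of a group were separate cultures, so a p-value here reflects differences among these arrays that could be purely technical. All samples of both groups carried a virus, so uninfected cells were not compared. With 6 arrays, precision was low throughout.

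Myelin is the stack of glial membrane around axons, made in the brain by oligodendrocytes once their precursors leave the cell cycle. Myelin basic protein (Mbp) and Mobp hold the cytoplasmic faces of the stack together, claudin 11 (Cldn11) forms the tight junctions between its layers, and Cnp is an enzyme of the cytoplasmic channels that stay open. Mag and Mog are immunoglobulin-type proteins of the innermost and outermost membrane, and Opalin is a transmembrane glycoprotein. Fa2h hydroxylates the fatty acids of myelin lipids, Ugt8a adds galactose to ceramide, and Gal3st1 turns the product into sulfatide. REST is a repressor of neuronal genes in cells that are not neurons.

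Promoter windows of 4 of the genes are shown because these genes stand for the patterns described below, namely Mobp and Opalin, the genes with a probe set higher in all 3 pairs, and Cnp and Cldn11, which followed the pattern common to most members. Each window runs from 250 bases before to 50 bases after a RefSeq start in build GRCm38.p6. The windows are chr9:120149492-120149791 on the plus strand for Mobp, chr19:41077064-41077363 on the minus strand for Opalin, chr11:100574689-100574988 on the plus strand for Cnp and chr3:31149670-31149969 on the plus strand for Cldn11. Capitals mark matches, on either strand, to the letters ACAAAG or ACAATG, which SOX factors recognise, and CTGGCAC or CTGGTAC, which the myelin gene regulator MYRF recognises.
Mobp: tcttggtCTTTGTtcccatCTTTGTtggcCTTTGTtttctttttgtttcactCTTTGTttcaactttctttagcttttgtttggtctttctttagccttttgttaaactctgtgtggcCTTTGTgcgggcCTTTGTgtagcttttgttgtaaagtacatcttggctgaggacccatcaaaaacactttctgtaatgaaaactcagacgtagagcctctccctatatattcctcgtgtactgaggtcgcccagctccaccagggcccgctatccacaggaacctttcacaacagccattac
Opalin: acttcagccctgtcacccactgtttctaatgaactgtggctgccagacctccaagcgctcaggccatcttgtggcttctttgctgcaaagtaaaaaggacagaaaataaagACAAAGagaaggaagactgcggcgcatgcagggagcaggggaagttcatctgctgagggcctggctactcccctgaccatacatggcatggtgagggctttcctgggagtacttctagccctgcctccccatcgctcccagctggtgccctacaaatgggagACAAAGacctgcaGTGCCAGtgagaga
Cnp: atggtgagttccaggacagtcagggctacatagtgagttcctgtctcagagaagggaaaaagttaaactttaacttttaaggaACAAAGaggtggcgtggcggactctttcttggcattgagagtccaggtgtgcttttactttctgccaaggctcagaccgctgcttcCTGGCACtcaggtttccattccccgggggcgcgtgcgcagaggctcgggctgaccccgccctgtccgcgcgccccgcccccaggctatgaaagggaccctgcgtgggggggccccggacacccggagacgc
Cldn11: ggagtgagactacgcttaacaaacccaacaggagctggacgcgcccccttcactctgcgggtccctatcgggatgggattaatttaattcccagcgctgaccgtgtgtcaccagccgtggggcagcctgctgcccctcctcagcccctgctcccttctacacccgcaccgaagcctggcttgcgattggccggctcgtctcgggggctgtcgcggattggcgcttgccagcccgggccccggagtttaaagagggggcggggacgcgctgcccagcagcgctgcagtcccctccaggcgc
The Mobp window held no MYRF match and 6 SOX matches, all read as CTTTGT on the strand shown. The Opalin window held 2 SOX matches and 1 MYRF match, the Cnp window held 1 of each, and the Cldn11 window held neither. RefSeq windows were found for 8 of the 10 genes, all but Mbp and Fa2h, 12 windows in all, some of which overlap. A SOX match was present in 7 of the 12 windows, against 28.6% of all 32851 windows, and a MYRF match in 5 of 12, against 7.1% of all windows. Overlapping windows of Mag and of Gal3st1 count the same match more than once. By gene, a SOX match was present for 5 of the 8 and a MYRF match for 4 of the 8, and the shares over all windows were not counted per gene. CANNTG, the E-box bound by OLIG factors, was present in 9 of 12 windows, against 72.3% of all windows. RE1, the element bound by REST, matched in 0 of the 12 windows and in 0.0639% of all windows. These are matches of letters, and binding was not measured.

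Rest itself read lower after REST shRNA. Its 4 probe sets were each lower in every pair of arrays with the same number, at 57.3% to 71.5% of control. The brightest one read 8.63, 7.70 and 8.20 in REST shRNA arrays 1, 2 and 3, against 8.92, 8.75 and 8.90 in control arrays 1, 2 and 3, all as log2 signal. REST shRNA array 2 was thus the lowest for this probe set, and its value stood 1.05 below that of control array 2. The probe set with the largest drop, at 57.3% of control, was level over the REST shRNA arrays. It read 4.47, 4.50 and 4.47 in REST shRNA, against 5.45, 5.34 and 5.05 in control. In the remaining Rest probe sets REST shRNA array 2 was the lowest. Over all probe sets the adjusted p of Rest was 0.9998 in limma, and an exact two-sided permutation test gave 0.1, the least that this design can give. The highest signal of 27 bacterial control probe sets was 3.24. All 10 neural progenitor markers, among them Nes, Sox2, Pax6, Vim and Fabp7, had a mean above it. So did all 12 astrocyte markers, all 12 neuron markers and 13831 of all 18193 genes. Detection alone therefore does not tell which cell type was present.

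No difference between the groups passed the test for the myelin genes, and the REST shRNA arrays lay on both sides of the controls. For 12 of the 25 probe sets, from Mbp, Mobp, Mag, Mog, Cnp and Cldn11, REST shRNA arrays 1 and 3 read above all controls and REST shRNA array 2 below all controls, against 4.21% of all probe sets. REST shRNA array 2 was the lowest of the 6 arrays for 19 of the 25 (24.2% of all probe sets) and array 3 the highest for 23 of the 25 (22.5% of all probe sets), and both held for 19 of the 25 (8.27% of all probe sets). The range over the REST shRNA arrays was wider than that over the control arrays for all 25 probe sets, with medians of 2.47 and 0.76 on the log2 scale. Over all probe sets these medians were 0.53 and 0.38, and the REST shRNA range was wider for 29304 of 45037. The residual standard deviation within groups had a median of 0.98 over the members and of 0.27 over all probe sets, and 23 of the 25 members lay above the 90th percentile.

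**Figure D1:**
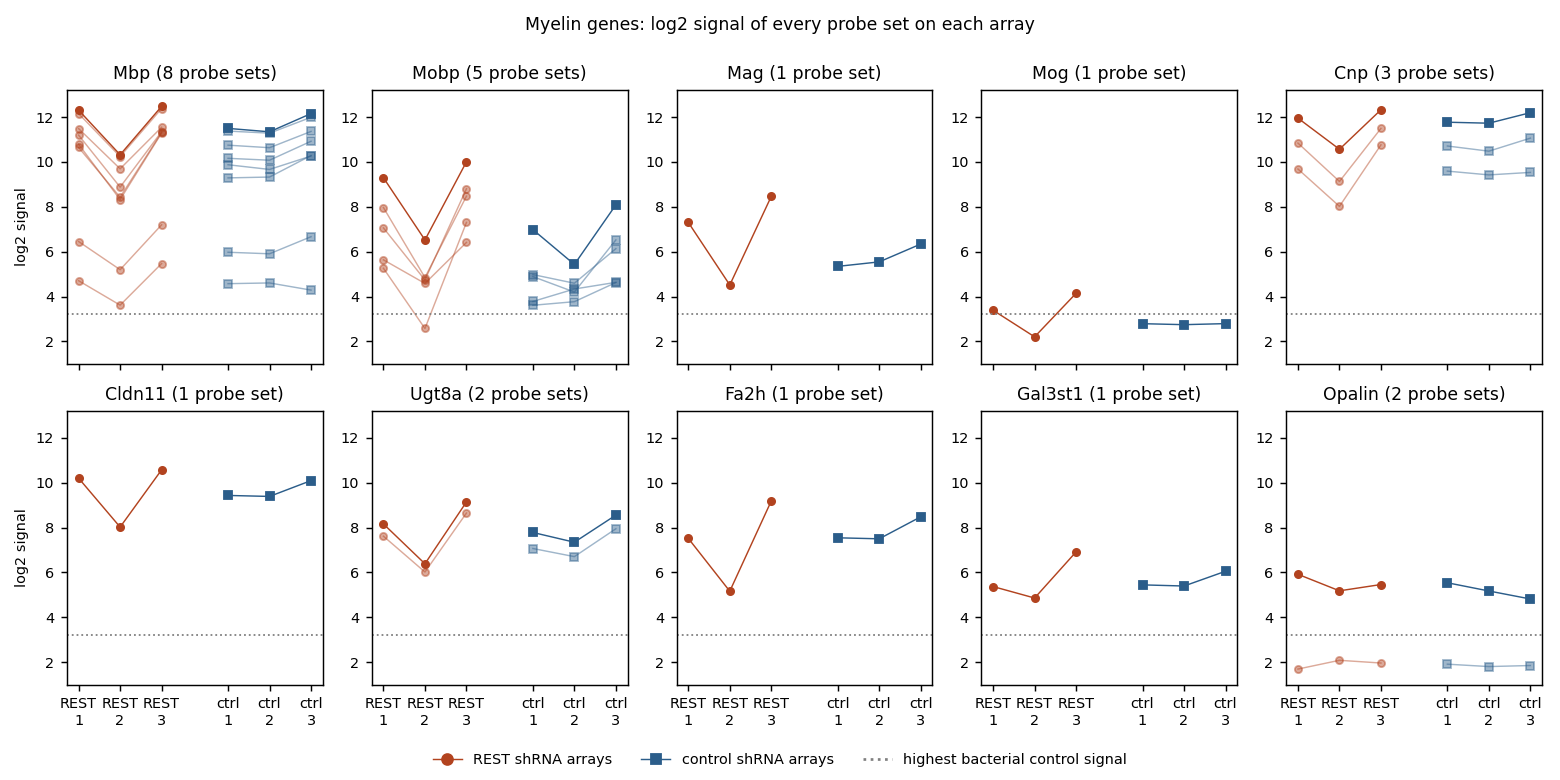
Log2 signal (vertical axis) of each myelin probe set on the 3 REST shRNA arrays (circles) and the 3 control shRNA arrays (squares), 1 panel per gene. Lines join the values of 1 probe set within a group, darker for the brightest probe set, and the dotted line is the highest bacterial control signal, 3.24. REST shRNA array 2 is the lowest array for 19 of the 25 probe sets and REST shRNA array 3 the highest for 23.

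In all 8 probe sets of Mbp, REST shRNA array 2 was lowest and array 3 highest, and in 7 of them arrays 1 and 3 lay above and array 2 below every control. The brightest read 12.31, 10.32 and 12.48 in REST shRNA arrays 1, 2 and 3, against 11.49, 11.34 and 12.15 in control arrays 1, 2 and 3. REST shRNA array 2 was the lowest of the 6, the other 2 REST shRNA arrays were the highest, and the controls lay between them. The groups averaged 11.70 ± 1.20 in REST shRNA and 11.66 ± 0.43 in control (SD, n = 3 each), a difference of 0.04 with a 95% interval of -1.33 to 1.41. The interval held 0, so neither a rise nor a fall within its bounds can be told from no change. Its bounds are not the smallest difference that the adjusted test could have called. The other 7 probe sets of Mbp differed by -0.01 to 0.50, and several of them cover the same transcripts.

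Cldn11 read 10.20, 8.02 and 10.58 in REST shRNA arrays 1, 2 and 3, against 9.43, 9.39 and 10.10 in control arrays 1, 2 and 3. The order of the arrays was that of Mbp, and the difference of the means was -0.04 (95% interval -1.57 to 1.49). The brightest Cnp probe set read 11.95, 10.56 and 12.32 in REST shRNA, against 11.77, 11.73 and 12.20 in control. In Cnp REST shRNA array 1 lay within the control range for this probe set, and the 3 probe sets differed by -0.28 to -0.03.

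Mag and Mog, the immunoglobulin-type membrane proteins, read higher on average in REST shRNA. Mag read 7.31, 4.52 and 8.47 in REST shRNA arrays 1, 2 and 3, against 5.35, 5.55 and 6.34 in control arrays 1, 2 and 3. Arrays 1 and 3 of REST shRNA lay above and array 2 below every control, and the difference of the means was 1.02 (95% interval -1.19 to 3.23). Leaving out REST shRNA array 2 made it 2.14, and leaving out array 3 made it 0.17. Mog read 3.39, 2.20 and 4.15 in REST shRNA, against 2.79, 2.75 and 2.79 in control. The control values and that of REST shRNA array 2 lay below the highest bacterial control signal, so Mog was above background in 2 arrays only, both REST shRNA, and its difference of 0.47, which was 0.99 without REST shRNA array 2 and 0.02 without array 3, is given with no fold. Opalin did not share the pattern. Its brighter probe set read 5.92, 5.18 and 5.46 in REST shRNA, against 5.54, 5.18 and 4.82 in control, with overlapping groups and a difference of 0.34 (95% interval -0.29 to 0.97). The second Opalin probe set lay below the bacterial signal on all 6 arrays.

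The lipid enzymes were likewise lowest in REST shRNA array 2 and highest in array 3. Fa2h read 7.52, 5.17 and 9.19 in REST shRNA arrays 1, 2 and 3, against 7.55, 7.50 and 8.48 in control arrays 1, 2 and 3. It had the widest REST shRNA range of the 3 enzymes, 4.02 on the log2 scale, and a difference of -0.55 (95% interval -2.76 to 1.66). The brighter Ugt8a probe set read 8.16, 6.39 and 9.14 in REST shRNA, against 7.78, 7.35 and 8.56 in control. Its group means were nearly equal, at 7.90 ± 1.40 and 7.90 ± 0.61 (SD, n = 3 each). Gal3st1 read 5.37, 4.86 and 6.92 in REST shRNA, against 5.45, 5.40 and 6.06 in control, so REST shRNA array 1 lay just under the controls and the difference was 0.08.

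Mobp was the member with the largest difference. Its brightest probe set read 9.30, 6.52 and 10.01 in REST shRNA arrays 1, 2 and 3, against 6.98, 5.43 and 8.09 in control arrays 1, 2 and 3. The groups overlapped, since REST shRNA array 2 lay below control arrays 1 and 3, yet each REST shRNA array was above the control array of its own number. The mean difference was 1.77, or 3.42-fold, with a 95% interval of -0.62 to 4.17. The next probe set read 7.97, 4.85 and 8.47 in REST shRNA, against 4.89, 4.20 and 6.52 in control, and another read 7.06, 4.74 and 8.80 in REST shRNA, against 4.98, 4.59 and 6.14 in control. The fourth read 5.64, 4.59 and 6.41 in REST shRNA, against 3.78, 4.34 and 4.63 in control. That was the sole member probe set with an interval that left out 0, 0.19 to 2.40. The fifth was lower in pair 2, with 2.58 in REST shRNA array 2 against 3.77 in control array 2. The differences of the 5 probe sets ran from 1.04 to 1.89, and all 5 read one gene, so they are not independent.

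In the limma fit over all 45037 probe sets no probe set was called in either direction at an adjusted p under 0.05 (0% of all probe sets), and the smallest adjusted p of a member was 0.9998. At an unadjusted p under 0.05 in limma, 1 member probe set, of Mobp, was higher, against 1.54% of all probe sets, and 0 were lower, against 1.93%. For that probe set the limma p was 0.0277 and the exact permutation p 0.2. For 0 of the 25 did the groups fail to overlap, in either direction, against 4.35% of all probe sets with REST shRNA higher and 3.9% with REST shRNA lower. Exact two-sided permutation tests gave 0.2 at the least. A positive difference was seen for 19 of the 25, against 52.6% of all probe sets, and the median difference was 0.10 over the members and 0.01 over all probe sets. Of the 25, however, 8 were of Mbp and 5 of Mobp. By the brightest probe set per gene, 7 of 10 members were positive, against 57.2% of all genes, and the medians were 0.06 and 0.04.

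For 6 of the 10 genes the sign of the difference turned on which REST shRNA array was left out. Without REST shRNA array 2, 24 of the 25 differences were positive (52.3% of all probe sets), with a median of 0.75, and 13 had an unadjusted p under 0.05 in limma and were higher, against 3.18% of all probe sets. These 13 came from Mbp, Mobp, Mag, Mog and Cldn11. The count at an adjusted p under 0.05 stayed at 0 of 25 and at 0% of all probe sets, and the smallest adjusted p of a member was 0.716. REST shRNA array 2 was the lowest array for 19 of the 25, so leaving it out raised those differences by construction. Leaving out any other single array gave 0 member probe sets higher at an unadjusted p under 0.05 in limma, or 1 without control array 3. Without REST shRNA array 3, 8 of the 25 were positive and the median was -0.35. By the brightest probe set per gene that median was -0.43, against 0.02 over all genes. For the brightest probe set of each gene, the Mbp difference was 0.73 when REST shRNA array 2 was left out and -0.35 when array 3 was, and that of Fa2h was 0.51 and -1.50. Mobp stayed positive, at 2.82 and 1.07.

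**Figure D2:**
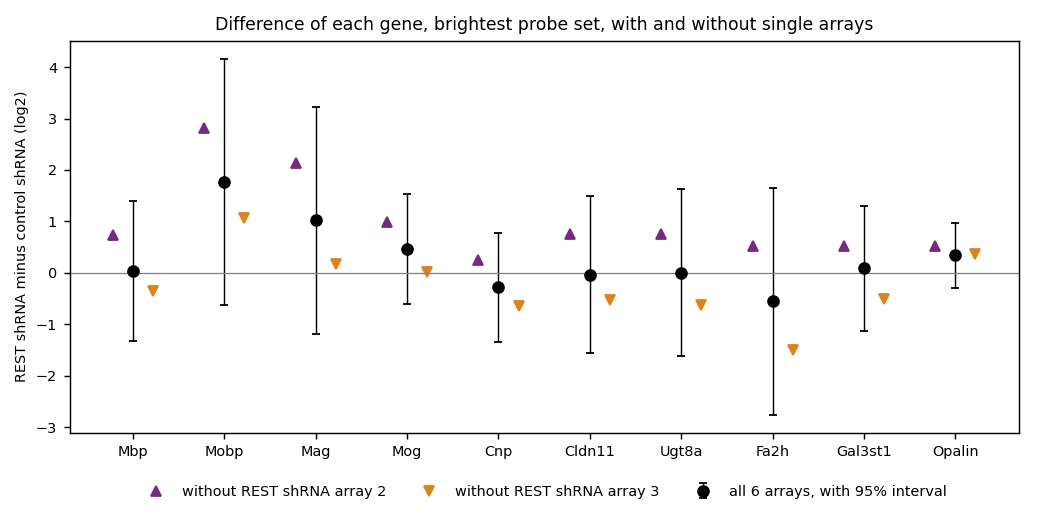
Difference of REST shRNA minus control shRNA (vertical axis, log2) for the brightest probe set of each gene, from all 6 arrays with its 95% interval (circles), without REST shRNA array 2 (upward triangles) and without REST shRNA array 3 (downward triangles). All 10 genes lie above 0 without array 2, and 6 lie below 0 without array 3.

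Within the replicate numbers, pairs 1 and 3 ran against pair 2. Pair 1 was positive for 22 of the 25 probe sets (49.6% of all probe sets), pair 3 for 25 of 25 (53.2%) and pair 2 for 6 of 25 (50.3%). The 6 were 4 probe sets of Mobp and both of Opalin, and the other 19 were negative in pair 2 (49.2% of all probe sets). The brighter Opalin probe set was at only 0.01 in pair 2, and its second probe set lay below the bacterial signal on all 6 arrays. Positive in pairs 1 and 3 and negative in pair 2 were 17 of 25, against 15.4% of all probe sets. For Mbp the pair differences over its 8 probe sets were 0.13 to 1.36 in pair 1, -1.34 to -0.71 in pair 2 and 0.19 to 1.18 in pair 3. Thus in pair 2 Mbp read 0.39 to 0.61 times its control. Mag differed by 1.96, -1.03 and 2.13 in pairs 1, 2 and 3, and Fa2h by -0.02, -2.34 and 0.71. Fa2h in REST shRNA array 2 was at 0.20 times the level of control array 2, the lowest ratio among the members in that pair.

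Probe sets higher in all 3 pairs numbered 5 of 25, against 12.2% of all probe sets, and 0 were lower in all 3 (11% of all probe sets). Of these 5, 4 were of Mobp and 1 of Opalin. The brightest Mobp probe set differed by 2.31, 1.09 and 1.92 in pairs 1, 2 and 3, or 4.96-fold, 2.13-fold and 3.78-fold. The second differed by 3.08, 0.65 and 1.95, and the others of the 4 by 2.08, 0.15 and 2.67 and by 1.86, 0.25 and 1.78. In pair 2 the Mobp differences were therefore small for 3 of the 4 probe sets. Opalin differed by 0.38, 0.01 and 0.64.

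Deviations from group means correlated at 0.117, 0.282 and 0.402 between arrays numbered 1, 2 and 3. The pairing is weak for number 1, since REST shRNA array 2 and control array 1 correlated at 0.231. With this limit, the limma fit was repeated with the replicate number as a block. At an unadjusted p under 0.05, 4 member probe sets were then higher, all of Mobp, against 1.87% of all probe sets, and 0 were lower (2.42% of all probe sets). The unadjusted p with the block in limma was 0.00062 for the brightest Mobp probe set, 0.0053, 0.0139 and 0.0101 for the next 3, and 0.183 for the fifth. With adjustment over all probe sets it was 0.998, which is also the smallest adjusted p of the whole table with the block, so no member was called.

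**Figure D3:**
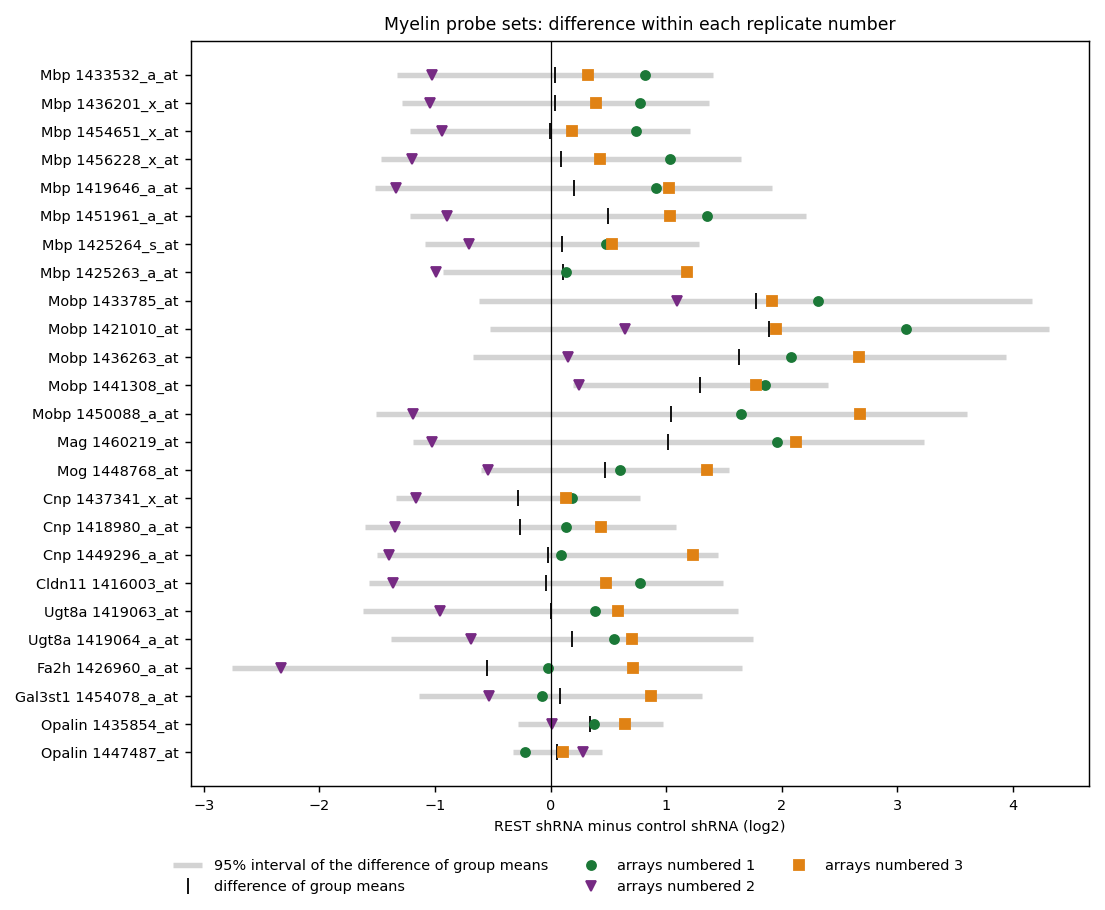
REST shRNA minus control shRNA (horizontal axis, log2) for the 25 myelin probe sets, 1 row each, within arrays numbered 1 (circles), 2 (triangles) and 3 (squares). Black ticks give the difference of the group means and grey bars its 95% interval. Pair 2 lies below 0 for 19 rows, while 4 Mobp rows lie above 0 in all 3 pairs.

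Mobp was also set against the other members on centred values. Each gene's brightest probe set was centred on its mean over the 6 arrays, and the median over the 8 other genes with a mean above the bacterial signal was taken. That median stood at 0.42, -1.44 and 1.10 in REST shRNA arrays 1, 2 and 3, against -0.15, -0.25 and 0.46 in control arrays 1, 2 and 3. Mobp minus this median was 1.16, 0.24 and 1.19 in REST shRNA, against -0.59, -2.04 and -0.09 in control. The REST shRNA arrays were all above the control arrays in this measure, which was chosen after Mobp was known to differ and is given with no test.

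Other genes of the myelin sheath came from a list of 38, of which 34 were measured. REST shRNA array 2 was lowest for 17 (27.6% of all genes) and array 3 highest for 23 (4822 of all 18193 genes). Of the 34, 19 read higher on average (57.2% of all genes), and the median difference was 0.03 over the list and 0.04 over all 18193 genes. No gene was called in either direction (0% of all genes each), and at an unadjusted p under 0.05 in limma 2 were higher and 0 lower, against 1.69% and 1.04% of all genes. The 2 were Ermn, a cytoskeletal protein of oligodendrocytes, and Tppp, which promotes tubulin polymerization. Ermn read 3.08, 2.88 and 3.20 in REST shRNA, against 2.58, 2.18 and 2.61 in control, all below the bacterial signal. Tppp read 5.39 at the lowest in REST shRNA, against 5.49 at the highest in control, so the groups overlapped, and it differed by 0.96, 0.39 and 0.46 in pairs 1, 2 and 3. With the replicate block 5 were higher and 1 lower at an unadjusted p under 0.05, against 2.18% and 1.36% of all genes.

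Of the 5, Mal, a proteolipid of myelin, is singled out after its values were seen. It read 8.19, 5.67 and 9.05 in REST shRNA, against 6.14, 4.90 and 7.91 in control, and differed by 2.05, 0.77 and 1.14 in pairs 1, 2 and 3. Like Mobp it was higher in each pair although its groups overlapped. The other 4 were Tspan2, Ermn, Tppp and Apod, and the 1 lower gene was Aspa, which splits N-acetylaspartate. Aspa lay below the bacterial signal in REST shRNA arrays 2 and 3, at 3.01 and 2.89, and in control array 3, at 3.23, so the size of its difference is not given. Leaving out REST shRNA array 2 gave the list a median of 0.44, and leaving out array 3 gave -0.28.

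Sphingolipid synthesis and turnover, the wider pathway of Ugt8a, Fa2h and Gal3st1, was measured by a separate list. Of 24 measured genes of 26 listed, 13 were positive (57.2% of all genes), with a median of 0.05. At an unadjusted p under 0.05 in limma 0 were higher and 0 lower, against 1.69% and 1.04% of all genes. Degs2 and Cers2, a ceramide desaturase and a synthase of very long chain ceramides, had the smallest p and differed by 0.48 ± 0.22 and 0.34 ± 0.17 (SE, log2). The list mean, with each gene centred on its 6 arrays, stood at -0.04, -0.26 and 0.38 in REST shRNA arrays 1, 2 and 3, against -0.13, -0.04 and 0.09 in control arrays 1, 2 and 3.

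Factors of the oligodendrocyte lineage had a median of -0.01 over 18 measured genes of 20 listed, with 9 positive (57.2% of all genes). At an unadjusted p under 0.05 in limma 0 were higher and 0 lower (1.69% and 1.04% of all genes). Sox8 and Zfp536, the 2 with the smallest p, differed by -0.36 ± 0.26 and 0.41 ± 0.24 (SE, log2). Myrf, the regulator of myelin gene transcription, read 5.25, 4.32 and 7.67 in REST shRNA, against 5.06, 5.39 and 6.24 in control. Sox10, which acts on the same genes, read 8.86, 7.14 and 10.22 in REST shRNA, against 8.22, 8.24 and 9.49 in control. Over the 18 factors, 11 were lowest in REST shRNA array 2 (27.6% of all genes) and 9 highest in array 3 (4822 of all 18193 genes). Myrf and Sox10, named after their values were seen, were both lowest in REST shRNA array 2 and highest in array 3, as were most myelin genes. Olig1 and Olig2 were not: Olig2 read 9.77, 10.52 and 10.25 in REST shRNA, against 10.24, 10.20 and 10.05 in control. Genes that hold back oligodendrocyte differentiation had a median of -0.27 over 16, against 0.04 over all genes. Of the 16, 2 were positive (57.2% of all genes) and 14 negative, and 0 were called (0% of all genes in either direction). At an unadjusted p under 0.05 in limma 0 were higher and 0 lower, against 1.69% and 1.04% of all genes. Tcf4 and Hey2 differed by -0.34 ± 0.17 and -0.72 ± 0.39 (SE, log2). Without REST shRNA array 2 that list's median was -0.05 and 7 of its 16 genes were positive (10691 of all 18193 genes).

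Several other lists also had their extreme values in REST shRNA array 2. The mean of 9 cell cycle genes of 10 listed, each centred, stood at -0.04, 1.86 and -1.58 in REST shRNA arrays 1, 2 and 3, against 0.68, 0.84 and -1.76 in control arrays 1, 2 and 3. All 9 were highest in REST shRNA array 2 (24.7% of all genes), the array lowest in most myelin genes, and the list mean was lowest in both arrays numbered 3. Astrocyte markers stood at 0.34, -1.23 and 0.27 in REST shRNA, against 0.36, 0.07 and 0.19 in control, and 11 of 12 were lowest in REST shRNA array 2 (27.6% of all genes). Their Slc1a2 differed by -0.70 ± 0.20 (SE, log2) and Fgfr3 by the same amount, -0.70 ± 0.34. Neural progenitor markers stood at 0.13, -0.33 and -0.10 in REST shRNA, against 0.13, 0.10 and 0.06 in control. A positive difference was seen for 1 of 10 (57.2% of all genes), and for 6 of 10 without REST shRNA array 2 (10691 of all 18193 genes). Sox2 and Fabp7 had the smallest p there, at -0.38 ± 0.23 and -0.40 ± 0.24 (SE, log2). The part of these lists in the myelin values was not tested, and in bulk samples fewer cells of a type and less RNA per cell cannot be told apart.

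Neuron markers were higher in REST shRNA arrays by list mean. Their mean stood at 0.43, 0.00 and 0.66 in REST shRNA, against -0.53, -0.39 and -0.17 in control, with 9 of 12 positive (57.2% of all genes) and 5 higher at an unadjusted p under 0.05 in limma (1.69% of all genes), though 0 were called. Snap25, which takes part in the fusion of synaptic vesicles, read 9.25, 9.02 and 9.09 in REST shRNA, against 7.37, 7.22 and 8.03 in control. Gap43, a growth cone protein, differed by 1.13 ± 0.30 (SE, log2). Snap25 in REST shRNA array 2 was level with the other REST shRNA arrays, where Mbp, Mag and Fa2h were at their lowest.

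Markers of other possible sources were as follows. Schwann cell markers had 8 measured genes of 10 listed, 6 with a mean above the bacterial signal, and 8 positive differences (57.2% of all genes) with a median of 0.24, which was 0.02 without REST shRNA array 3. Sox10 is also among the lineage factors. Their mean stood at -0.19, 0.02 and 0.66 in REST shRNA, against -0.41, -0.40 and 0.32 in control. Pou3f1 differed by 1.24 ± 0.76 and Cdh19, which lay below the bacterial signal on average, by 0.40 ± 0.28 (SE, log2). Microglia and blood cell markers had 4 of 9 genes above the bacterial signal, with Aif1 at 1.02 ± 0.30 and Cd68 at -0.76 ± 0.36. Endothelial and mesenchymal markers had 5 of 10 above it, with Col1a1 at 0.42 ± 0.18 and Col3a1 at 0.23 ± 0.21. Their part in the myelin values was not tested. The 3' minus 5' signal of Gapdh, a measure of RNA integrity and labelling, was 1.93, 1.93 and 2.25 in REST shRNA arrays 1, 2 and 3, against 1.94, 1.72 and 2.87 in control arrays 1, 2 and 3. It was highest in array 3 of each group, where most members were also highest in their group. For actin the same measure was 0.25, 0.37 and 0.32 in REST shRNA, against 0.34, 0.32 and 0.37 in control. The part of either in the myelin values was not tested.

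**Figure D4:**
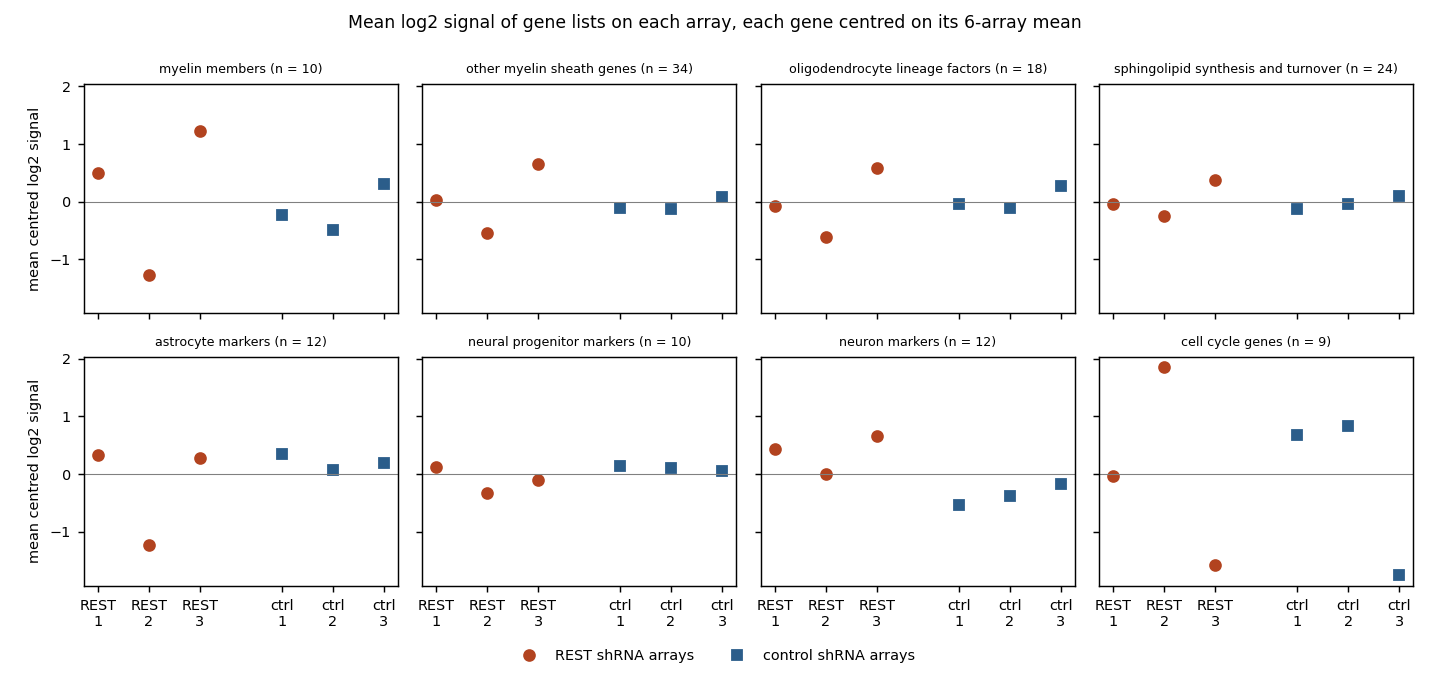
Mean log2 signal of 8 gene lists (vertical axis, each gene centred on its mean over the 6 arrays) on the REST shRNA arrays (circles) and the control shRNA arrays (squares). Myelin genes are lowest and cell cycle genes highest in REST shRNA array 2, at -1.28 and 1.86, while neuron markers are higher in all REST shRNA arrays than in any control.

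The genes most like the myelin profile were sought among 13822 other genes with a mean above the bacterial signal, by the root mean square distance between centred values over the 6 arrays. The profile was the median of the 9 members above that signal, at 0.57, -1.36 and 1.25 in REST shRNA, against -0.19, -0.28 and 0.44 in control. The 5 closest were Wdr45, Apoc1, Fry, Nyap1 and Phactr3, at distances of 0.12 to 0.19, where the median gene was at 0.83. Apoc1 read 5.89, 3.95 and 6.63 in REST shRNA, against 4.93, 5.11 and 5.59 in control. Wdr45 read 9.34, 7.59 and 10.03 in REST shRNA, against 8.67, 8.78 and 9.29 in control. Among the members, Cldn11, Mbp and Ugt8a lay at 0.15, 0.19 and 0.20 from the median, and Cnp, Gal3st1, Fa2h and Mag at 0.35, 0.42, 0.56 and 0.60. Mobp was the farthest at 1.04, with Opalin next at 0.80. The median was taken from these same members, so their closeness to it is in part fixed by construction, unlike that of the other genes.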

How the data were processed

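Log2 signals per probe set came from the deposited table of 6 one-colour Affymetrix arrays. No source used here states the authors' background correction, probe summary or scaling; the log2 unit was read from the deposited values, 1.00 to 13.7. Quantiles of any array lay within 0.15 of the mean quantile, so no scaling was added, and 64 control probe sets were left out.

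GEO's platform annotation gave 1 gene to 34945 probe sets, several to 932 and did not list 9160, and 34741 were found in RefSeq with 0 symbols changed. Promoter windows are RefSeq GRCm38.p6. Differences were fitted with limma 3.58.1 (R 4.3.3) on 45037 probe sets with no filter. Group alone was modelled, on 4 residual degrees of freedom plus 2.9 from the prior. Tests were two-sided and Benjamini-Hochberg adjusted p under 0.05 was a call. The script was tested on simulated data.

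Deviations from group means correlated at 0.117, 0.282 and 0.402 between arrays numbered 1, 2 and 3 in the titles. All exceeded 0.1, so same-numbered arrays were treated as pairs. REST shRNA array 2 and control array 1 correlated at 0.231, above the value for the arrays numbered 1.

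Lists used the brightest probe set per gene, and 172 of 183 entries matched; the others are not reported here. Named genes were Rest, every member, the 2 genes of each list with the smallest p, any gene called, the 5 most like the median profile and markers; others are said to be chosen after their values were seen. Members and lists were chosen with earlier results of these data known. Alternatives were the replicate block, median centring, quantile normalization, a filter on dim probe sets, limma-trend, array weights, other probe set choices, and leaving out arrays or pairs.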

Additional observations from a re-analysis of the deposited data

How the results depend on the processing

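No probe set was called at an adjusted p under 0.05 in limma, of the members or of the table, under any alternative run. At an unadjusted p under 0.05, all 6 arrays gave 692 probe sets higher and 868 lower (307 and 189 by the brightest probe set per gene), and leaving out single arrays gave 324 to 1434 higher and 513 to 1367 lower. The replicate block kept every difference and changed no adjusted call (0 members called), while members higher at an unadjusted p under 0.05 numbered 4 with the block and 1 without. Leaving out single arrays gave 8 to 24 member probe sets with a positive difference, against 19 with all arrays. The lowest and highest differences were -0.35 and 0.73 for Mbp, -0.64 and 0.24 for Cnp, -0.53 and 0.75 for Cldn11, -0.62 and 0.76 for Ugt8a, -1.50 and 0.51 for Fa2h, -0.52 and 0.51 for Gal3st1, and -0.084 and 2.28 for the fifth Mobp probe set, the highest each time without REST shRNA array 2 and the lowest without REST shRNA array 3. Centring each array on its median turned Cldn11 to 1.3e-05. Array weights turned Cnp to 0.025 and Cldn11 to 0.46. Without both arrays numbered 1, Mbp was -0.35 and Ugt8a -0.19. Without both numbered 2, Cnp was 0.16, Cldn11 0.62 and Fa2h 0.34. Without both numbered 3, Mbp was -0.11, Ugt8a -0.29 and Gal3st1 -0.31, and 10 member probe sets were positive. The cause was not tested beyond the arrays left out. Precision is limited by 3 arrays per group, and Mog in the controls and the second Opalin probe set in all arrays lay under the bacterial signal.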
